A study of Mus musculus with 32 samples.

Results

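Fatty acid desaturases place double bonds into fatty acids, and 3 of their genes, Scd1, Scd2 and Fads1, were followed here through pregnancy, lactation, a change of dietary fat and a change of tissue. All probe sets that the annotation of the array assigned to only 1 of these genes were taken, which gave 3 of the 8251 genes so annotated and 6 of the 12422 probe sets that are not controls. Scd1 had 3 of them (94056_at, 94057_g_at and 94058_r_at), Scd2 had 2 (95758_at and 162077_f_at) and Fads1 had 1 (160391_at). A further 396 probe sets, assigned to several genes, were not considered as members. All 6 member probe sets passed the filter on dim signals in every comparison.

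Scd1 and Scd2 encode stearoyl-CoA desaturases, enzymes of the endoplasmic reticulum that turn stearate and palmitate, bound to coenzyme A, into the monounsaturated oleate and palmitoleate. Oleate made in this way is a main component of milk triglyceride and keeps milk fat fluid. Fads1 encodes a front-end desaturase of the polyunsaturated pathway, which acts on dietary linoleic and linolenic acid after Fads2 and an elongation step and ends in arachidonic and eicosapentaenoic acid. All of them draw electrons from NADH through cytochrome b5 reductase and a cytochrome b5, which Fads1 carries as a domain of its own. In the mouse, Scd1 is the main form in liver and adipose tissue and is known to be lowered by polyunsaturated fat in the diet, and Scd2 is known from brain. In the gene order of the mouse assembly GRCm38.p6, Scd3, Scd2, Scd4 and Scd1 lie in a row on chromosome 19, and Fads3, Fads2 and Fads1 form another row on the same chromosome.

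RNA came from wild-type FVB mice and was measured on 32 arrays, with 1 sample per array. For the diets, dams ate chow until lactation day 5 and then a diet with 8% or 40% of its energy from soy oil, and tissues were collected at lactation day 10. This gave 3 arrays of liver on 8% fat, 3 of mammary gland on 8% fat and 3 of mammary gland on 40% fat. Titles name 3 more mammary arrays on 16% fat, for which neither the day nor the feeding is stated. The descriptions of the mammary 8% and 16% arrays say 40%, and the groups follow the titles. The time course covered the mammary gland of dams on normal dietary fat, called chow below, at days 12 and 17 of pregnancy (PD12 and PD17) and days 1, 2 and 9 of lactation (LD1, LD2 and LD9), with 4 arrays each. Chow, diet, day and experiment therefore changed together between LD9 and the diet groups and cannot be told apart. Mammary tissue holds epithelium, fat cells and other cells, so fewer cells of a type and less RNA per cell cannot be told apart in any value below.

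The deposited intensities are on a linear scale, and changes are given in log2 with the later stage, the higher fat content, the diet group or the liver on top. The median intensity on an array lay between 16.1 and 21.5 and the maximum between 28564 and 58520. Group means below 4.22 in log2, the median of all values, are at the dim end of the arrays, and the size of a change against such a mean is not measured. At the bright end, Scd1 on 94056_at and 94057_g_at lay at the 99.27 percentile or higher on every array. Whether changes of such bright signals appear at their full size was not tested, which limits comparisons of size with other probe sets. The milk protein genes Csn2 and Wap read at most 11.5 on liver arrays, against 9875 to 22868 and 12565 to 56988 on mammary arrays, and albumin read 25131 to 34387 on liver arrays and at most 17.1 on mammary arrays. The sum over 10 fat cell markers was 6162 to 7394 at PD17 against 10873 to 19044 at PD12, and it was 1663 to 3067 at LD9. Over 12 milk and luminal genes the sum was 175983 to 194309 at PD17 against 94961 to 126571 at PD12, and it was 215289 to 234030 at LD9. Milk proteins weigh heavily in this sum, Wap alone reading 52470 to 56988 at LD9. Krt8 read 250 to 290 at LD9 against 1021 to 1176 at PD17, and Krt18 329 to 526 against 1044 to 1329. At LD9 against PD17, 5 of the 12 were called higher and 4 lower, where 64% of all probe sets were called, 32.2% higher. The part of fat, milk and luminal cells in the stage changes below was not tested.

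**Figure D1:**
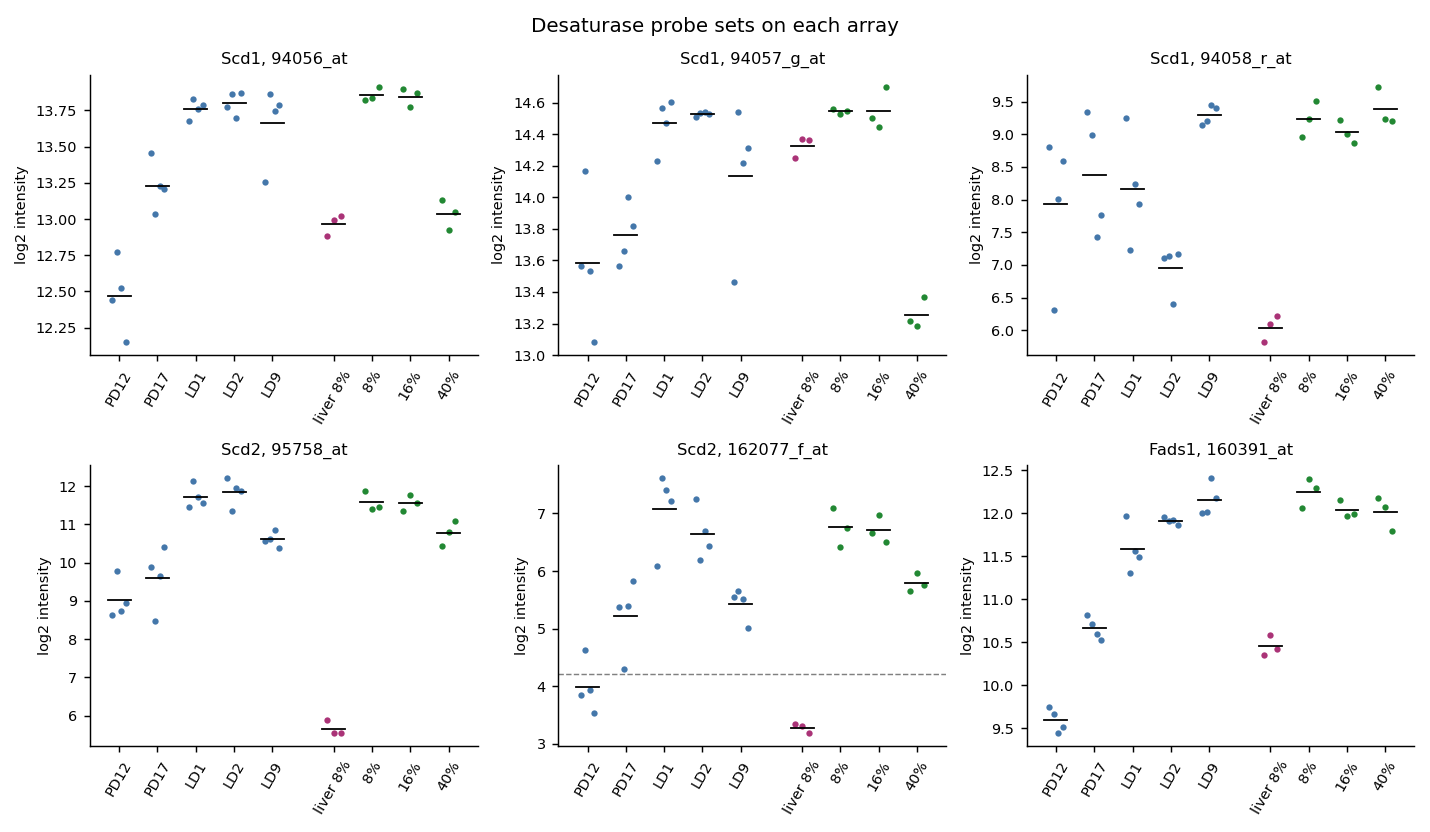
Each point is the log2 intensity of 1 array, the black bars are group means (n = 4 per chow stage, n = 3 per diet or liver group), and each panel has its own y axis. Blue marks chow stages, purple liver on 8% fat and green mammary gland on 8%, 16% and 40% fat, and the dashed line in the panel of 162077_f_at is 4.22, the median of all values. Scd1 drops at 40% fat on 94056_at and 94057_g_at, both Scd2 probe sets peak at LD1 or LD2, and Fads1 climbs to 4115 to 5446 at LD9.

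Scd1 was higher after parturition than in late pregnancy on 94056_at and 94057_g_at. On 94056_at the intensities were 5561, 7006, 5880 and 4536 at PD12, then 11213, 8387, 9588 and 9452 at PD17. They were 13078, 14523, 13894 and 14129 at LD1, 13996, 14935, 13279 and 14956 at LD2, and 9800, 14931, 13761 and 14119 at LD9. Only LD9 replicate 1 among the lactation arrays lay inside the PD17 range. This probe set rose by 0.76 at PD17 against PD12 (95% interval 0.47 to 1.04, limma adjusted p = 0.000186) and by a further 0.53 at LD1 against PD17 (0.25 to 0.82, adjusted p = 0.00708). The values of the 2 stages did not overlap in either step. No change passed between LD1 and LD2 (0.04, adjusted p = 0.865) or between LD2 and LD9 (-0.14, adjusted p = 0.505), and the LD9 estimate was -0.0012 without LD9 replicate 1.

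On 94057_g_at, PD12 gave 12118, 18389, 11865 and 8660 and PD17 gave 12098, 12918, 16408 and 14433, so these stages overlapped. At LD1 the values were 19201, 24250, 22724 and 24937, all above PD17. LD2 arrays were close together at 23321, 23716, 23876 and 23604, and LD9 arrays were spread out at 11273, 23826, 19088 and 20297. The only step between adjacent stages to pass was LD1 against PD17 (0.71, 0.28 to 1.14, adjusted p = 0.0160), and it missed the threshold without PD17 replicate 1 (adjusted p = 0.0515). At LD9 against PD17 the change was 0.37 (adjusted p = 0.119), and it passed without LD9 replicate 1 (0.60, adjusted p = 0.00808). The difference of PD17 against PD12, called on 94056_at, was 0.17 here (-0.26 to 0.60, adjusted p = 0.503).

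The third Scd1 probe set, 94058_r_at, took another course. It is annotated from another source sequence than the other 2, and the letter r in its name is the manufacturer's mark for a set whose probes could not meet all design rules. Its replicates were far apart at PD12 (446, 79.3, 259 and 385), PD17 (650, 509, 173 and 218) and LD1 (609, 150, 303 and 244). They lay close together at LD2 (138, 141, 84.3 and 143) and at LD9 (568, 586, 697 and 679). Against PD17 it fell by 1.43 at LD2 (-2.45 to -0.41, adjusted p = 0.0207), where both other Scd1 probe sets rose. That call was lost without PD17 replicate 1 (adjusted p = 0.0824), PD17 replicate 2 (0.0671) or LD2 replicate 3 (0.0638), and with quantile normalization (0.0514) or equal ribosomal medians (0.0543). At LD9 against LD2 it rose by 2.35 (1.32 to 3.37, adjusted p = 0.00145), and the values of these days did not overlap.

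**Figure D2:**
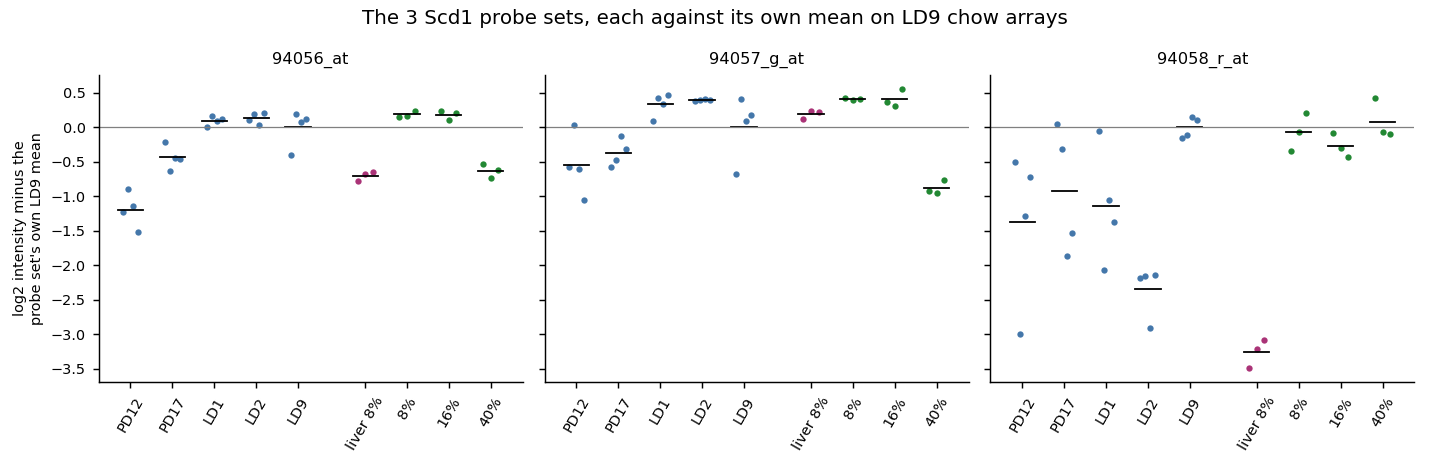
Each point is 1 array, plotted as log2 intensity minus the mean of the LD9 arrays on the same probe set, and black bars are group means (n = 4 per chow stage, n = 3 per diet or liver group). On 94056_at and 94057_g_at the 40% fat group lies 0.82 and 1.29 below the 8% group, and on 94058_r_at it lies 0.15 above it, with the low groups at LD2 and in liver.

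Across the 8 mammary groups, the means of 94056_at and 94057_g_at had a Pearson r of 0.87. The r of 94058_r_at was 0.08 with 94056_at and -0.20 with 94057_g_at. These are descriptions over 8 group means that share arrays between probe sets. The name of 94057_g_at also carries a letter, g, and whether its probes overlap those of 94056_at was not tested. Group means spanned 2.61-fold on 94056_at, 2.45-fold on 94057_g_at and 5.39-fold on 94058_r_at. The changes were also set against each other within arrays, as the log2 difference of a pair of Scd1 probe sets, by a two-sided exact permutation test. None of the 39 tests passed after Benjamini-Hochberg adjustment, the smallest adjusted p being 0.139, and 8 had an unadjusted p under 0.05. The unadjusted p cannot go below 0.0286 with 4 against 4 or 3 against 4 arrays, or below 0.1 with 3 against 3. A test could therefore pass the adjustment only if most of the 39 stood at the lower floor, and no conclusion is drawn from none passing. At LD9 against LD2 the change of 94058_r_at exceeded that of 94056_at by 2.48 and that of 94057_g_at by 2.74 (exact p = 0.0286 for each, n = 4 per day). At PD17 against PD12 the change of 94057_g_at was 0.59 below that of 94056_at (exact p = 0.0286, n = 4 per day).

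Scd2 rose at parturition and was lower again by LD9 on both of its probe sets. On 95758_at the intensities were 396, 881, 426 and 496 at PD12 and 953, 353, 803 and 1367 at PD17, with overlap. They reached 2799, 4492, 3347 and 3033 at LD1 and 4751, 2626, 3986 and 3738 at LD2, all above every pregnancy array. At LD9 they were 1511, 1584, 1853 and 1339, below all values of LD1 and LD2. The rise at LD1 against PD17 was 2.11 (1.45 to 2.77, adjusted p = 6.69e-05), a 4.31-fold difference, and 24 of the 7189 probe sets tested had a larger one. The fall at LD9 against LD2 was -1.24 (-1.90 to -0.58, adjusted p = 0.00628). Against PD17, LD9 was still called higher, by 1.00 (adjusted p = 0.00924). Before parturition, the change at PD17 against PD12 was 0.58 (adjusted p = 0.136), and it passed without PD12 replicate 2 (0.83, adjusted p = 0.0407) or without PD17 replicate 2 (0.96, adjusted p = 0.00654).

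The second Scd2 probe set, 162077_f_at, was dim, and the letter f marks a set designed on a family of similar sequences. It read 67.9 to 196 at LD1 against 19.6 to 56.5 at PD17, and it rose by 1.86 (1.16 to 2.57, adjusted p = 0.000416). At LD9 it read 32.3 to 50.1 against 73.0 to 151 at LD2, a fall of -1.21 (adjusted p = 0.0118). Both Scd2 probe sets thus rose and fell at the same steps, and the r of their 8 group means was 0.96. At PD17 against PD12, 162077_f_at was called higher (adjusted p = 0.00597), but its PD12 mean of 3.98 lies under the median of all values, so the size is not measured.

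Fads1 was higher at each later stage of the chow time course. Its intensities were 860, 808, 695 and 731 at PD12 and 1798, 1674, 1550 and 1472 at PD17. They were 4004, 2520, 3016 and 2879 at LD1, 3967, 3854, 3892 and 3712 at LD2, and 4115, 4142, 5446 and 4644 at LD9. Only LD1 and LD2 overlapped among adjacent stages. The rise was 1.07 at PD17 against PD12 (0.81 to 1.34, adjusted p = 2e-06) and 0.92 at LD1 against PD17 (0.65 to 1.18, adjusted p = 2.84e-05). The later steps did not pass on their own (0.33 at LD2 against LD1, adjusted p = 0.0809, and 0.24 at LD9 against LD2, adjusted p = 0.180). The first of these passed without LD1 replicate 1 (0.46, adjusted p = 0.0107), with quantile normalization (0.50, adjusted p = 0.0319) and with equal ribosomal medians (0.44, adjusted p = 0.0316). LD9 against PD17 amounted to 1.49 (1.23 to 1.76, adjusted p = 1.33e-08), a 2.81-fold difference.

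Counted over the members, 3 of 6 probe sets were called higher at PD17 against PD12, where 45.1% of all tested probe sets were called in either direction, 18.4% higher and 26.7% lower. At LD1 against PD17, 5 of 6 were higher, against 23.3% called, 9.32% higher and 14% lower among all. No member passed at LD2 against LD1, where 14.3% of all did, 439 higher and 588 lower. Leaving out 1 array took these numbers to as few as 177 higher (without LD1 replicate 3) and 336 lower (without LD1 replicate 2). At LD9 against LD2, 1 was higher and 2 were lower, with 25% of all called, 8.82% higher and 16.2% lower. Against PD17, LD2 had 5 members higher and 1 lower (49.9% of all called, 25.5% higher and 24.5% lower) and LD9 had 3 higher (64% of all called, 32.2% higher). The stage comparisons share arrays, PD17 standing in 4 of the 6. Over the 5 stages jointly, limma's F test called all 6 members and 87.5% of all probe sets.

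Where 10 ribosomal protein probe sets were set to equal medians on each array, the median change of all probe sets moved by 0.17 (PD17 against PD12), 0.34 (LD1 against PD17), 0.13 (LD2 against LD1), 0.47 (LD2 against PD17) and 0.52 (LD9 against PD17). Over all probe sets it gave 3726 higher and 384 lower at LD1 against PD17, in place of 670 and 1004, and 4413 and 648 at LD2 against PD17, in place of 1830 and 1759. At LD9 against PD17 it gave 4259 and 1128, in place of 2313 and 2290. Under this scaling and under quantile normalization, the stage changes that were called on 94056_at, 94057_g_at, both Scd2 probe sets and Fads1 kept their sign.

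In the diet groups, Scd1 was lower on 40% than on 8% or 16% fat on 94056_at and 94057_g_at. On 94057_g_at the 40% arrays read 9502, 9319 and 10554, against 24115, 23659 and 23908 on 8% fat and 23206, 22286 and 26555 on 16% fat. On 94056_at the 40% arrays read 8965, 7780 and 8479, against 14463, 14626 and 15391 on 8% and 15249, 13973 and 14949 on 16%. Group means on 94057_g_at were 13.26 ± 0.10 in log2 on 40% fat, against 14.54 ± 0.01 on 8% and 14.55 ± 0.13 on 16% (SD, n = 3 each). The highest 40% array lay below the lowest array of either other diet on both. Scd1 fell by 1.29 on 94057_g_at (interval -1.51 to -1.07, adjusted p = 0.00118) and by 0.82 on 94056_at (-1.03 to -0.61, adjusted p = 0.0178), which are 2.44-fold and 1.77-fold. By p-value they ranked first and second of 6483 probe sets.

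These 2 were among only 6 probe sets called for 40% against 8% fat, or 0.0925% of those tested, 3 higher and 3 lower (0.0463%) (538 had an unadjusted p under 0.05). The third lower one was Slc25a1, the mitochondrial citrate carrier (-0.85, adjusted p = 0.0231). The higher ones were Slc4a2, an anion exchanger (0.84, adjusted p = 0.0231), Col9a1, a collagen chain (0.89, adjusted p = 0.0337), and AU020206 (0.85, adjusted p = 0.0456). Against 16% fat, which shares the 40% arrays, 8 probe sets were called (0.123%, of which 0.0463% lower), among them 94057_g_at (-1.29, adjusted p = 0.00115) and 94056_at (-0.81, adjusted p = 0.00994). The call of 94057_g_at held without any single array. The call of 94056_at for 40% against 8% was lost in 5 of the 6 leave-outs, namely without 40% replicate 2 (adjusted p = 0.0928) or 3 (0.0509) and without 8% replicate 1 (0.0543), 2 (0.0707) or 3 (0.110), while its change stayed between -0.87 and -0.77. It was also lost with a replicate block (adjusted p = 0.0762), in a fit of only these 2 groups (0.0605) and with ribosomal medians equal (0.0532). Against 16% fat it was lost without 40% replicate 1 (0.0656) or 16% replicate 3 (0.0792).

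**Figure D3:**
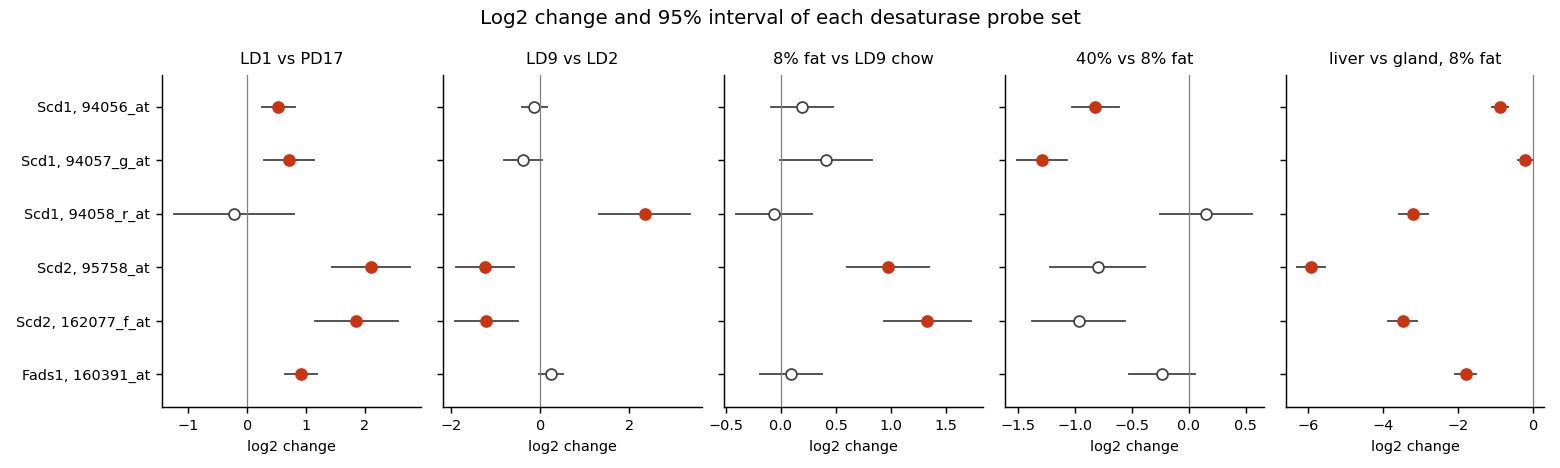
Points are limma's log2 changes and lines their 95% intervals for the 6 member probe sets in 5 comparisons, each panel with its own x axis (n = 4 arrays per chow stage, n = 3 per diet or liver group). Filled red points passed at an adjusted p under 0.05 over all probe sets. Only 94056_at and 94057_g_at are filled for 40% against 8% fat, and in the liver panel their positions at -0.89 and -0.22 turn positive with ribosomal medians set equal.

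The other members were not called for dietary fat. Scd2 read 1397, 1792 and 2173 on 40% fat, against 3765, 2698 and 2824 on 8% and 2629, 3472 and 3022 on 16%, on 95758_at. The change against 8% was -0.80 (-1.22 to -0.38, adjusted p = 0.201). On 162077_f_at the 40% arrays read 50.4, 62.4 and 54.2, against 137, 85.9 and 108 on 8%, with a change of -0.97 (-1.37 to -0.56, adjusted p = 0.134). The 40% and 8% arrays did not overlap on either Scd2 probe set. Over the members, 4 of 6 probe sets had groups that did not overlap, as did 13.1% of all tested. Against 16% fat it was also 4 of 6, and 17.1% of all.

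Fads1 read 4629, 4319 and 3554 on 40% fat, against 4269, 5383 and 5027 on 8% fat, and these ranges overlapped. Its change was -0.23 (-0.52 to 0.06, adjusted p = 0.699). Scd1 on 94058_r_at read 843, 599 and 591 on 40%, against 496, 604 and 729 on 8%, with a change of 0.15 (-0.25 to 0.55, adjusted p = 0.919). Its interval excludes the falls estimated on the other 2 Scd1 probe sets. Within arrays, the change of 94057_g_at lay 0.47 below that of 94056_at and that of 94058_r_at lay 1.44 above that of 94057_g_at (exact permutation p = 0.1 each, the smallest that 3 against 3 arrays allow).

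No member was called for 16% against 8% fat, where 0% of the 6483 probe sets (0 in number) passed in limma and 800 had an unadjusted p under 0.05. The changes ran from -0.21 on Fads1 (-0.50 to 0.08) to 0.0033 on 94057_g_at (-0.22 to 0.22). The fat cell marker sum was 1824 to 2443 on 40% fat against 1021 to 2695 on 8%, and the milk and luminal sum 211788 to 217925 against 207765 to 212334. No marker of either list was called, of 10 and 12 tested.

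Set beside LD9 chow, Scd2 was called higher on 8% and 16% fat and Scd1 was called lower on 40% fat. Scd2 was higher on 8% than on LD9 chow by 0.97 on 95758_at (0.60 to 1.34, adjusted p = 0.00399) and by 1.33 on 162077_f_at (0.93 to 1.72, adjusted p = 0.00111), without overlap. It was likewise higher on 16%, by 0.95 (adjusted p = 0.00524) and 1.28 (adjusted p = 0.00153). On 40% fat its changes against LD9 were 0.17 (-0.20 to 0.54, adjusted p = 0.480) and 0.36 (-0.03 to 0.76, adjusted p = 0.161).

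Scd1 on 94056_at and 94057_g_at was not called on 8% against LD9 (0.19 and 0.41, adjusted p = 0.278 and 0.125), and the second passed without LD9 replicate 2 (0.55, adjusted p = 0.0377). On 40% it was lower than on LD9 chow, by -0.63 (-0.91 to -0.35, adjusted p = 0.00923) and -0.88 (-1.29 to -0.46, adjusted p = 0.0123). Even LD9 replicate 1, the lowest of its group, lay above all 40% arrays on both probe sets. These calls were lost in a fit of only these 2 groups (adjusted p = 0.0506 and 0.0598), without 40% replicate 2 (0.0502 and 0.0570) and, on 94057_g_at, without 40% replicate 1 (0.0515). Fads1 changed by 0.10 on 8%, -0.11 on 16% and -0.14 on 40% fat, none of them called. All 3 comparisons share the LD9 arrays. Of the 6 member probe sets, 2 were called higher on 8% fat, where 25.9% of all probe sets were called and 11.7% were higher. On 16% fat 2 were called higher, with 11.3% of all called and 8.32% higher. On 40% fat 2 were called lower, with 19.5% of all called and 9.97% lower. These shares moved with single arrays. The 796 higher calls on 8% fat became 333 without 8% replicate 2, the 565 on 16% fat became 247 without 16% replicate 1, and the 677 lower calls on 40% fat became 103 without 40% replicate 1 and 1238 without LD9 replicate 2.

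In liver on 8% fat, all 6 member probe sets were called lower than in mammary gland on the same diet, where 80% of all probe sets were called, 39.7% higher and 40.3% lower. Scd2 stood furthest apart. On 95758_at it read 59.7, 46.7 and 46.9 in liver against 3765, 2698 and 2824 in mammary gland, a change of -5.91 (-6.29 to -5.54, adjusted p = 1.89e-08), or 60.3-fold. On 162077_f_at liver read 10.2, 9.86 and 9.09 against 137, 85.9 and 108 (adjusted p = 5.85e-07), and the liver mean of 3.28 lies under the median of all values, so the size is not measured. Fads1 read 1305, 1533 and 1372 in liver, against 4269, 5383 and 5027, and was lower by -1.80 (-2.08 to -1.52, adjusted p = 3.98e-06).

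The 3 Scd1 probe sets gave unequal answers on liver. On 94056_at liver read 7548, 8165 and 8319 against 14463, 14626 and 15391 in mammary gland (-0.89, -1.10 to -0.68, adjusted p = 4.58e-05). On 94057_g_at liver read 19483, 21145 and 21039 against 24115, 23659 and 23908 (-0.22, -0.42 to -0.02, adjusted p = 0.0459). Setting ribosomal medians equal shifted the median of all probe sets by 1.01, gave 5503 higher and 741 lower in place of 2739 and 2779, and turned these to 0.09 on 94056_at (adjusted p = 0.428) and to 0.76 on 94057_g_at (adjusted p = 9.38e-05). The direction of Scd1 between the tissues therefore depends on the scaling, whereas Scd2 on both probe sets, Fads1 and 94058_r_at were lower in liver under each scaling tried. The call of 94057_g_at was also lost with quantile normalization (-0.14, adjusted p = 0.147) and in 5 of 6 leave-outs (adjusted p up to 0.109). On 94058_r_at liver read 56.3, 68.2 and 74.4 against 496, 604 and 729, a change of -3.19 (-3.58 to -2.80, adjusted p = 9.44e-07), or 9.15-fold, against 1.85-fold and 1.16-fold on the other Scd1 probe sets. Within arrays that change was 2.31 below the change of 94056_at (exact permutation p = 0.1, the smallest possible with 3 against 3).

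Scd2 and Fads1 were also set against Scd1, using the probe set of each gene whose mean was highest (95758_at and 160391_at against 94057_g_at), within arrays and in 26 exact two-sided permutation tests. None passed after adjustment (smallest adjusted p = 0.124) and 6 had an unadjusted p under 0.05. Here too a test could pass only if most of the 26 stood at the smallest possible p, so none passing decides nothing. At LD1 against PD17 the change of Scd2 exceeded that of Scd1 by 1.40 (exact p = 0.0286, n = 4 per day). At LD9 against LD2 Fads1 exceeded Scd1 on 94057_g_at by 0.64 (exact p = 0.0286, n = 4 per day), as it did at PD17 against PD12 by 0.90 (exact p = 0.0286, n = 4 per day). The other bright Scd1 probe set, 94056_at, was not set against Scd2 or Fads1. At PD17 against PD12 it rose by 0.76, where 94057_g_at changed by 0.17 and Fads1 by 1.07. At LD9 against LD2 it changed by -0.14, where 94057_g_at changed by -0.40 and Fads1 by 0.24.

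The group means of Scd2 were ordered differently from those of Fads1. On 95758_at the order was LD2, LD1, 8% fat and 16% fat, then 40% fat and LD9, then PD17 and PD12, and last liver. Neighbours in this order overlapped except between 16% and 40% fat and between PD12 and liver. For Fads1 the order was 8% fat, LD9, 16% fat, 40% fat, LD2, LD1, PD17, liver and PD12, with breaks only between LD1 and PD17 and between liver and PD12. On 94056_at the order ran from 8% and 16% fat over LD2, LD1, LD9, PD17, 40% fat and liver to PD12, and only liver and PD12 were separate. On 94057_g_at 16% fat was first and 40% fat last, and all neighbours overlapped.

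Among single-gene probe sets whose highest mammary group mean reached the median of all values and whose group means spanned at least 1 in log2, about 3100 in number, the 3 with the highest Pearson r over the 8 group means were noted for each member. For Scd2 on 95758_at they were Mvd (0.98), an enzyme of the mevalonate pathway, Fdps (0.97), which makes farnesyl diphosphate in that pathway, and Slc41a1 (0.97), a magnesium transporter. On 162077_f_at they were Mvd (0.99), Cyb5b (0.97), a cytochrome b5 of the outer mitochondrial membrane, and Dbt (0.97), a subunit of the branched-chain ketoacid dehydrogenase. For Fads1 they were Slc34a2 (0.99), the phosphate carrier of secretory epithelia, St6gal1 (0.99), a sialyltransferase, and Esyt3 (0.99). For Scd1 on 94056_at they were Tmem30b (0.94), Reep6 (0.93) and Slc35e4 (0.92). On 94057_g_at they were Wee1 (0.78), a cell cycle kinase, Fdps (0.76) and Cyp51 (0.76), a sterol demethylase. For 94058_r_at they were Reg2 (0.995), A4galt (0.99) and Otulinl (0.99), the first 2 on probe sets that also carry the letter r.

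The enzymes around the desaturases were followed by lists drawn up with earlier results of these data known. Of the list of other desaturases and electron carriers, Fads2, Fads3, Scd3 and Scd4 had no single-gene probe set and 6 genes were measured. At LD1 against PD17, 3 of these 6 were called higher and none lower, with a median change of 0.29 against 0.03 for all probe sets, of which 9.32% were called higher. They were Cyb5b (1.37, adjusted p = 9.24e-05), the reductase Cyb5r3 (0.62, adjusted p = 0.000416) and its relative Cyb5r1 (0.42, adjusted p = 0.0282), and Cyb5a, the cytochrome b5 of the endoplasmic reticulum, changed by 0.16 (adjusted p = 0.564). At LD9 against LD2, where 16.2% of all probe sets were called lower, 3 of 6 were, Cyb5b by -0.85, the sphingolipid desaturase Degs1 by -0.55 and Cyb5r1 by -0.54. Both Scd2 probe sets were called in the same directions at these steps. On 8% fat against LD9 chow, where 11.7% of all were called higher, 3 of 6 were, Cyb5r4 (0.59), Cyb5r1 (0.57) and Cyb5r3 (0.36). Under either other scaling 1 was, where 497 (quantile normalization) and 484 (ribosomal medians equal) of all were higher, in place of 796.

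Elongases lengthen the fatty acids that the desaturases act on. At LD1 against PD17, 2 of 6 measured elongation genes were called higher, against 9.32% of all probe sets. Elovl5, an elongase of polyunsaturated acids, rose by 2.31 (adjusted p = 3.09e-09) and Elovl1 by 0.74 (adjusted p = 0.00209). With ribosomal medians equal 4 of 6 were called higher, but so were 3726 of all probe sets, in place of 670. Elovl6, which makes stearate from palmitate, changed by -0.30 (adjusted p = 0.393). On 8% fat against LD9 chow, 3 of 6 were called higher, against 11.7% of all, namely Elovl6 (1.12, adjusted p = 0.0116), the dehydratase Hacd3 (1.01, adjusted p = 0.00204) and Elovl5 (0.69, adjusted p = 0.0113). For 40% against 8% fat none of 6 passed, with values of -0.90 on Elovl6 and -0.44 on Elovl5 (adjusted p = 0.190 for each).

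Of the genes that supply saturated acyl chains, 3 of 9 were called higher and 1 lower at LD1 against PD17, where 9.32% and 14% of all probe sets were. With ribosomal medians equal 6 of 9 were higher, but so were 3726 of all probe sets, in place of 670. Slc25a1 was higher by 1.91, the citrate lyase Acly by 1.15 and Thrsp, a lipogenic regulator protein, by 0.80, and Dbi, the acyl-CoA binding protein, was lower by -0.96. Fasn, the fatty acid synthase, changed by 0.43 (adjusted p = 0.0504). At LD9 against LD2, 4 of 9 were called lower, against 16.2% of all, the acyl-CoA synthetases Acsl4 (-1.16) and Acsl5 (-0.78), Dbi (-0.69) and Acly (-0.36), and 3 under either other scaling, while Fasn changed by -0.22 (adjusted p = 0.318). For 40% against 8% fat the median of the 9 was -0.40, against 0.01 for all probe sets, and 1 of 9 was called, Slc25a1. Beside it stood the malic enzyme Me1 at -0.65 (adjusted p = 0.0796) and Fasn at -0.40 (adjusted p = 0.190).

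Of the transcription factors and their partners, 2 of 10 were called higher at LD1 against PD17, against 9.32% of all probe sets. They were Srebf1, the sterol-regulated factor known to drive Scd1, Fads1 and Fasn (1.04, adjusted p = 0.000312), and Mlx (0.63, adjusted p = 0.00432). Srebf1 had been lower at PD17 than at PD12 by -0.71 (adjusted p = 0.00386), where 94056_at and Fads1 were higher. In that comparison 6 of 10 were called lower, among them Pparg, the fat cell receptor (-1.71), and Nfya (-1.18), and 2 higher, Sp1 (1.02) and Rxra (0.89), where 26.7% of all were lower and 18.4% higher. For 40% against 8% fat Srebf1 changed by -0.72 (adjusted p = 0.321) and none of 9 passed. Against LD9 chow, 40% fat had 2 of 9 called lower, with 9.97% of all, Srebf1 by -0.70 (adjusted p = 0.0372) and Nfyb, a subunit of the CCAAT-binding factor, by -0.36 (adjusted p = 0.0461). Under either other scaling 1 of 9 was, and with ribosomal medians equal 158 of all probe sets were lower, in place of 677. Among the genes that pass acyl chains on to glycerolipids or to peroxisomes, 1 of 6 was called higher and 2 lower at LD1 against PD17 (9.32% and 14% of all), and none was called for 40% against 8% fat.

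**Figure D4:**
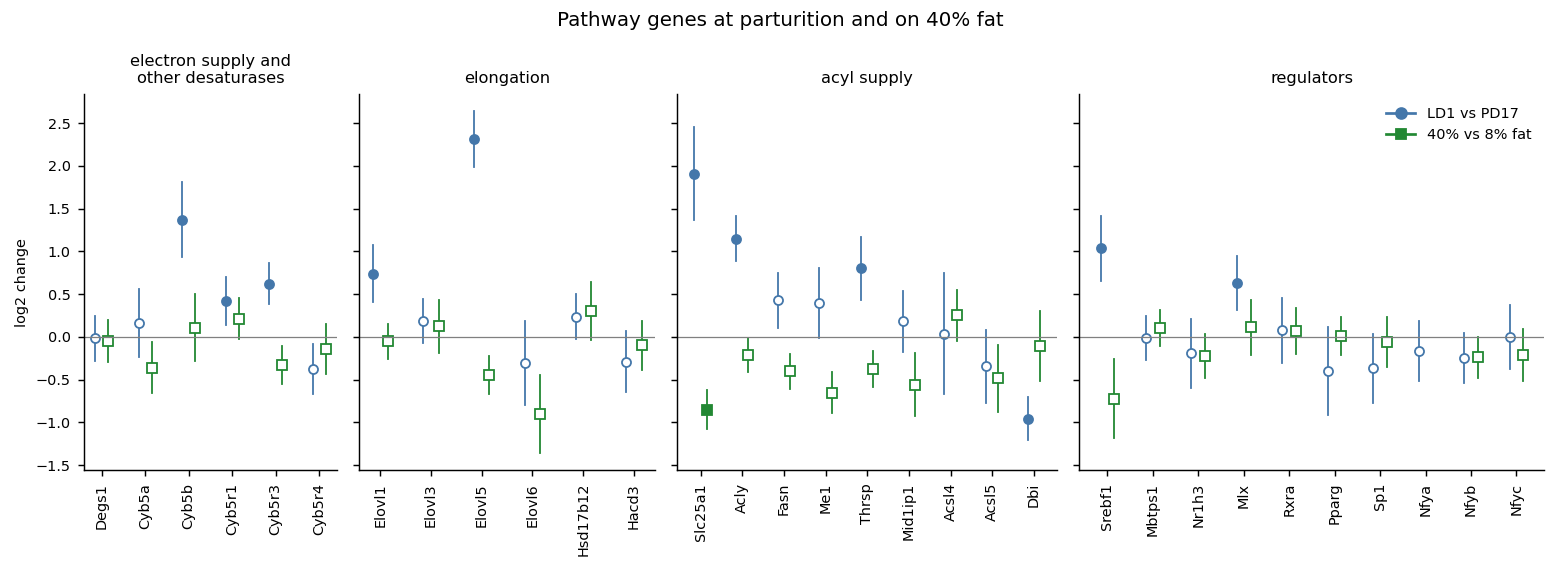
Points are limma's log2 changes and lines their 95% intervals for the measured genes around the desaturases, with blue circles for LD1 against PD17 (n = 4 each) and green squares for 40% against 8% fat (n = 3 each). Filled symbols passed at an adjusted p under 0.05 over all probe sets. Elovl5, Slc25a1 and Cyb5b have the highest circles, and Slc25a1 is the only filled square.

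In liver against mammary gland on 8% fat, the neighbours of the desaturases went both ways. Of the desaturase list 5 of 6 were called higher, where 39.7% of all probe sets were, among them Cyb5a (1.80), Cyb5r3 (1.66) and Degs1 (1.55), and Cyb5r1 was lower by -1.93. Elovl6 was higher by 2.19 and Hacd3 by 2.03, and Elovl2, an elongase of polyunsaturated acids, was called higher against a mammary mean under the median of all values, so its size is not measured, while Elovl5 was lower by -1.71 and Elovl1 by -1.63. Of 9 genes that supply saturated acyl chains, 5 were called lower and 3 higher, where 40.3% and 39.7% of all probe sets were. Slc25a1 (-2.41), Me1 (-1.81), Acly (-1.77) and Fasn (-1.71) were lower, as were Scd2 and Fads1. Srebf1 did not pass (-0.33, adjusted p = 0.0531). The 10 hepatocyte markers measured were all called higher in liver, and 10 of the 12 milk and luminal genes were lower. With quantile normalization 3 in place of 5 of the desaturase list were higher, and with ribosomal medians equal 10 of 10 regulators were, in place of 4. Under the latter scaling 5503 of all probe sets were called higher, in place of 2739.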

How the data were processed

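The values are intensities on a linear scale, deposited by the authors as a single table of 12488 probe sets on 32 arrays. Per the submitters' processing notes they were made with GCRMA, with no version named. No further scaling was applied. Values under 1, of which there were 208, were set to 1 before log2 was taken. The number of arrays limits the precision.

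Groups follow the titles, since some descriptions give a diet that differs from the title. No label matches animals between tissues, and p-values measure the spread between arrays. The 66 control probe sets were left out. Probe sets were tested where the highest group mean reached the median of all values, 18.6. Limma 3.58.1 (R 4.3.3) was fitted to the 20 chow arrays, the 9 mammary diet arrays, these with the 4 LD9 arrays, and the 6 arrays on 8% fat of both tissues. Benjamini-Hochberg adjustment ran over all tested probe sets, with a call under 0.05. On simulated data the fits recovered 88.5% (PD17 against PD12), 89.5% (40% against 8%), 87% (8% against LD9) and 83.5% (liver) of probe sets changed 2-fold, and 57%, 48.5%, 55% and 34.5%, in the same order, of those changed 1.5-fold. Of the calls made, 3.80%, 5.29%, 5.95% and 6.70% were false at 2-fold, and 0.87%, 8.49%, 2.65% and 4.17% at 1.5-fold. The simulated noise was normal and independent, and fewer probe sets were changed than were called in the stage and tissue comparisons. For 40% against 8% fat, many more were changed than were called in the data. The adjustment is stricter where few probe sets change, so the recovery given for that comparison can be too high for these data.

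Exact permutation tests used scipy 1.17.1. Genes in lists were represented by their brightest single-gene probe set. Named were all members, up to 4 called and 2 uncalled genes per list and comparison, always Srebf1, Elovl5, Elovl6 and Fasn where measured, and the 3 probe sets most like each member. Slc4a2, Col9a1 and AU020206 were named after their values were seen. Members and lists were chosen with earlier results of these data known. In no comparison did all arrays with the same replicate number deviate together (each correlation over 0.1), so the numbers were not used as pairs. Alternatives were the floor, the filter, 2 scalings, a variance trend, a replicate block, fits of only the compared groups and leaving out each array.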

Additional observations from a re-analysis of the deposited data

Results flagged for a closer look

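One value stood apart from its group. On the Scd1 probe set 94058_r_at, replicate 3 of lactation day 2 had the lowest intensity of its group, 84.3, against 138, 141 and 143 on the other 3 arrays. In log2, its gap to the nearest array was 0.934 of the range of the group, over Dixon's 95% critical value for 4 samples. This was 1 of 30 groups of 4 arrays looked at, and chance alone gives about 1 in 20. Without this array the change on 94058_r_at at lactation day 2 against pregnancy day 17 was -1.25 (limma adjusted p = 0.0638), in place of -1.43 (adjusted p = 0.0207).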

How the results depend on the processing

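The number of desaturase probe sets called changed under both other scalings, with a replicate block and in fits of only the compared groups. With quantile normalization, 1 in place of 0 was higher at LD2 against LD1 and 0 in place of 1 lower at LD2 against PD17, 4 in place of 3 were higher at LD9 against PD17 (94058_r_at passing, adjusted p = 0.0399) and 5 in place of 6 were lower in liver. With ribosomal medians equal these were also 1 and 0, 5 in place of 3 were higher at LD9 against PD17, 1 in place of 2 lower for 40% against 8% fat, and in liver 1 in place of 0 higher and 4 in place of 6 lower. With a replicate block, 1 in place of 2 was lower for 40% against 8% fat, 94056_at being lost (adjusted p = 0.0762), and the liver call of 94057_g_at was lost (adjusted p = 0.0877). The block changed no other call of a member. With only the compared groups, 1 in place of 2 was lower for 40% against 8% and 0 in place of 2 for 40% against LD9. The causes were not tested.

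Changes that turned sign were, with ribosomal medians equal, 94058_r_at at LD1 against PD17 (0.10), Fads1 for 40% against 16% fat (0.046), 94057_g_at for 16% against 8% (-0.038), and 94056_at and 94057_g_at in liver (0.0872 and 0.76). With quantile normalization they were 94057_g_at at LD2 against LD1 (-0.0895) and for 16% against 8% (-0.042), Fads1 for 40% against 16% (0.043) and 94058_r_at for 40% against LD9 (-0.011).

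Without single arrays, the number called higher ran from 3 to 4 at PD17 against PD12, 4 to 5 at LD1 against PD17, 0 to 1 at LD2 against LD1, 3 to 4 at LD9 against PD17 and 2 to 3 for 8% against LD9. The number called lower ran from 0 to 1 at LD2 against PD17, 1 to 2 for 40% against 8% and against 16%, 0 to 2 for 40% against LD9 and 5 to 6 in liver. Changes that turned sign without a single array ran from -0.0827 to 0.77 for 94058_r_at at PD17 against PD12, -0.58 to 0.0999 for it at LD1 against PD17, -0.0197 to 0.106 for 94057_g_at at LD2 against LD1 and -0.0998 to 0.41 for 162077_f_at at LD9 against PD17. They ran from -0.0183 to 0.287 for 94058_r_at at 40% against 8% fat, -0.202 to 0.0756 for it at 8% against LD9, -0.0828 to 0.174 for it at 40% against LD9, and -0.103 to 0.0871 for Fads1 at 40% against 16%. For 16% against 8% they ran from -0.0363 to 0.0267 (94056_at), -0.0713 to 0.0552 (94057_g_at), -0.21 to 0.128 (162077_f_at) and -0.119 to 0.13 (95758_at). Differences between probe sets that turned sign ran, for 94057_g_at minus 94056_at, from -0.0493 to 0.0623 (16% against 8%), -0.0292 to 0.0593 (LD2 against LD1) and -0.202 to 0.027 (LD9 against PD17). At PD17 against PD12 they ran from -0.943 to 0.0257 for 94058_r_at minus 94056_at and from -0.449 to 0.681 for 94058_r_at minus 94057_g_at. For 95758_at minus 94057_g_at they ran from -0.174 to 0.121 (16% against 8%) and -0.0522 to 0.241 (LD2 against LD1). Dim signal limits 162077_f_at. Of all probe sets, the 3 lower and 3 higher calls for 40% against 8% became 1 and 0 with a replicate block or only 2 groups. For 40% against 16% the 5 higher and 3 lower calls ranged over the settings from 0 to 18 and from 1 to 12. For 8% against LD9 the 961 lower calls became 229 with a replicate block and 249 with ribosomal medians equal, and for 40% against LD9 the 677 lower calls became 194 and 158. On both scalings 1 in place of 3 genes of the desaturase list was called higher for 8% against LD9.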

Other observations

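The probe sets that resemble the third Scd1 probe set share a kind of design. This count was made after the values were seen. Of the 20 single-gene probe sets whose 8 mammary group means correlated best with those of 94058_r_at (Pearson r of 0.944 or more), 16 carry the letter r or i, which mark sets that could not meet all design rules, against 7.35% of the 3100 candidates. For the other 5 members the number was between 0 and 2 of 20. The part of the probe design in the course of 94058_r_at was not tested.

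Fat cells of the brown type also use desaturases, and 5 of their markers were summed. The sum was 7496 to 9158 at lactation day 1 against 1117 to 1492 at pregnancy day 17, and without Cidea, as added after the values were seen, it was 181 to 241 against 151 to 173, so Cidea alone makes up most of it. Of these 5 genes 1 was called higher at that step, where 9.32% of all probe sets were. It was Cidea, which mammary epithelium is also known to express (2.74, adjusted p = 8.71e-09). The other 4 changed by 0.17 to 1.09 and were not called, among them Ucp1, the defining gene of brown fat (1.09, adjusted p = 0.167). With ribosomal medians equal all 5 were called higher, but so were 3726 of all probe sets, in place of 670. Of 5 myelin genes with a probe set, 2 were bright enough to test. Of these, 1 was lower at that step, Pmp22 (-0.90, adjusted p = 0.00307), where 14% of all probe sets were called lower.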
